A study of Rattus norvegicus with 6 samples.

Results

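The transcripts of the core NF-kB machinery were measured in RASMCs, primary smooth muscle cells of the rat aorta. The set comprised 10 genes, matched by symbol among the 22574 symbols of the count table and drawn up with earlier results of these data known: the 5 subunits Nfkb1, Nfkb2, Rela, Relb and Rel, the 4 inhibitors Nfkbia, Nfkbib, Nfkbie and Tnfaip3, and the kinase gene Ikbkb. All 10 were listed, and all 10 had enough counts to be tested. The cells came from male Sprague-Dawley rats without any genetic change stated. For 3 libraries the cells had been challenged with 0.03 uM H3CIT (citrullinated histone H3) together with 300 ng/ml dsDNA (double-stranded DNA), which extracellular traps contain. The cells of the 3 control libraries had been given BSA instead. For the in vitro experiments of the study, cells of one rat were spread over separate wells, and whether this holds for the sequenced libraries was not stated separately. The p-values measure the spread between these libraries, which may then be wells of one animal. The time between challenge and harvest was not given in the sources used here.

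NF-kB is a family of dimeric transcription factors that lie bound to inhibitory IkB proteins in the cytoplasm of a resting cell. Signals from Toll-like receptors, nucleic acid sensors and cytokine receptors activate the IKK kinase complex, which phosphorylates the IkB proteins and so marks them for degradation, and the freed dimers enter the nucleus. Several genes of the machinery are themselves NF-kB targets in many cell types, above all Nfkbia, Tnfaip3, Nfkb1, Nfkb2, Relb, Rel and Nfkbie, so that their transcripts often rise when the pathway is active. The comparison therefore asks whether the transcripts of these genes differed between challenged cells and controls.

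None of the 10 genes differed between the groups past the threshold. In edgeR's quasi-likelihood test 0 of 10 had an adjusted p-value under 0.05 (Benjamini-Hochberg adjustment over the 12591 genes tested), where 277 of all genes tested, 2.2%, were called. The log2 fold changes, H3CIT+dsDNA against control, ran from -0.13 (Nfkbie) to 0.16 (Rel), with a median of -0.012 beside -0.0013 over all genes tested. Values lay above 0 in 4 genes and below 0 in 6, and the sign turned for Nfkb1 and Tnfaip3 with upper-quartile scaling and for Rela and Ikbkb with library size alone. At an unadjusted p-value under 0.05, 1 of the 10 genes passed in edgeR, Nfkb2, which was lower, against 13.9% of all genes tested (8.64% higher and 5.3% lower). DESeq2 also called 0 of the 10, beside 2.07% of the genes it tested, and limma-voom 0 of the 10, beside 2.03%. Over 15 other ways of fitting the counts, the lowest adjusted p-value of any of the 10 genes was 0.214, for Nfkb2 with upper-quartile scaling. In 1 of the 10 genes, again Nfkb2, the 3 challenged libraries all lay on one side of the 3 controls, here below them, against 19.1% of all genes tested (10.7% higher and 8.43% lower).

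**Figure D1:**
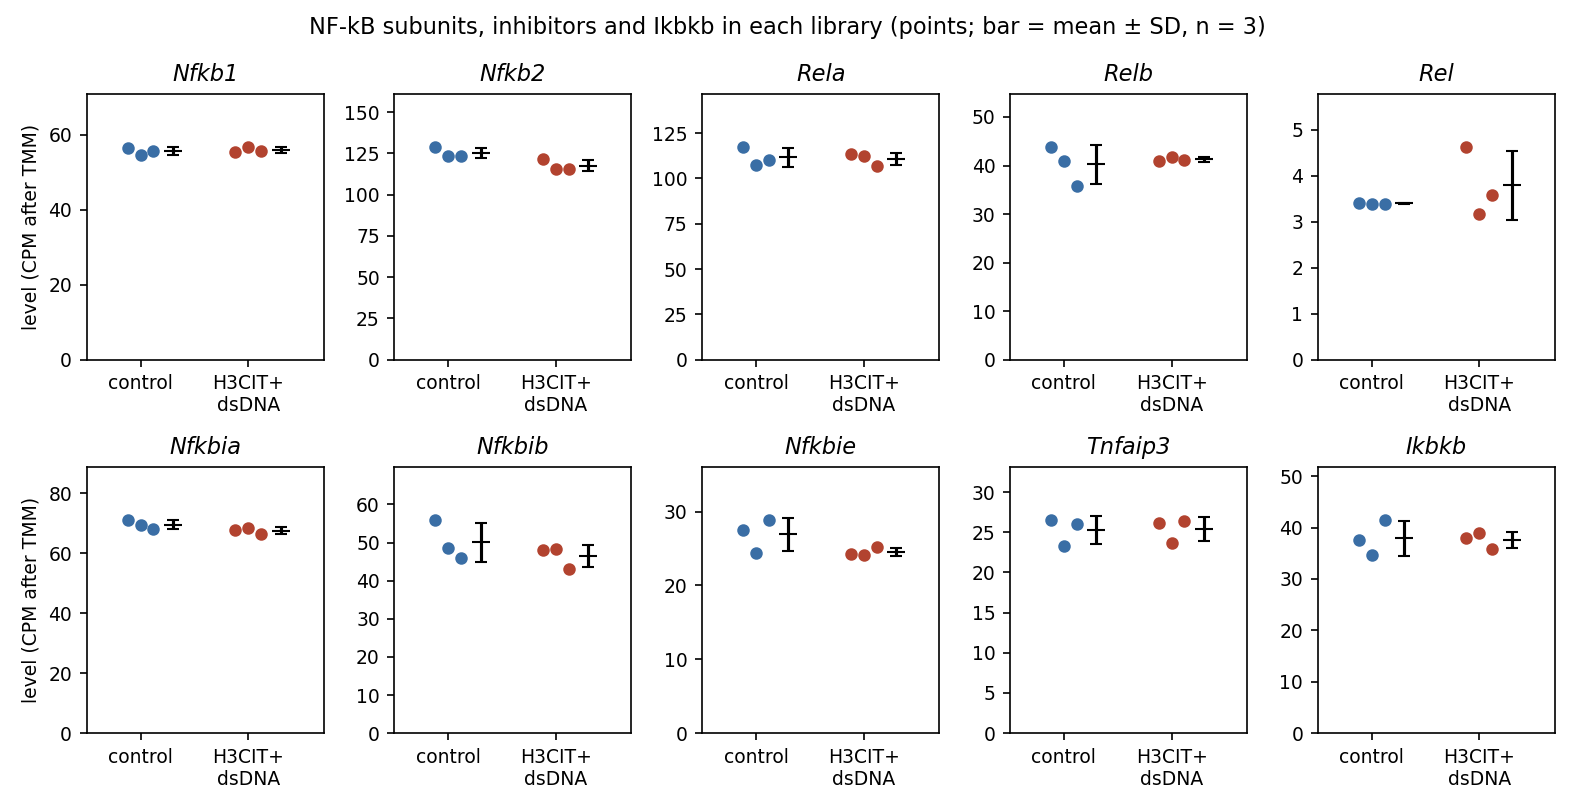
Levels of the 10 genes in each library, in CPM after TMM scaling, with the 3 control libraries in blue and the 3 H3CIT+dsDNA libraries in red. Black bars give mean ± SD (n = 3), and each gene has its own axis, starting at 0. Nfkb2 is the gene whose groups do not overlap, with 115 to 121 CPM against 123 to 129 CPM in controls.

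Levels are given as CPM, the counts scaled to a common library size with the TMM method, and can be compared between groups for a gene but not between genes, since they are not corrected for transcript length. Library totals lay between 17573905 and 18742395 counts. Control replicate 3 stood apart from the other controls over the whole table, with a chi-square per gene of 6.66 and 5.25 against them, where the other pairs of one group had 3.28 to 4.57. The cells carried smooth muscle transcripts at high level. The 9 smooth muscle markers summed to 6670 to 7165 CPM after H3CIT+dsDNA and 9321 to 10058 CPM in controls, and of them Acta2, Tagln and Cnn1 fell and Myocd rose in edgeR and in all 15 alternatives. Smtn was also called as lower (log2 fold change -0.21, edgeR adjusted p = 0.0386), but in only 6 of the 15 alternatives, and neither in DESeq2 (adjusted p = 0.0714) nor in limma-voom (0.0583). Cald1 went the other way, higher without overlap of the groups (log2 fold change 0.16, edgeR adjusted p = 0.102). It was called in 2 of the 15 alternatives, among them DESeq2 (adjusted p = 0.0163). Myh11, Des and Lmod1 were called neither in edgeR nor in any alternative. The part of these marker changes in the values given here was not tested. The summed level of the 9 macrophage markers was 72.7 to 75.1 CPM after H3CIT+dsDNA and 73.6 to 76.6 CPM in controls. Nearly all of it came from Cd14 (50.7 to 53.6 CPM over all libraries) and Csf1r (16.8 to 20.6 CPM). Cd68 reached at most 1.08 CPM, and Ptprc no more than 1 count in any library. Of the 5 markers tested 0 were called. Aif1, not tested, had 8, 9 and 9 counts against 2, 2 and 3, without overlap of the groups. Of the 7 endothelial markers, 3 were tested and 0 were called, with a summed level of at most 6.34 CPM against 6.52 to 7.49 CPM. The 4 T and B cell markers summed to at most 0.340 CPM and the 4 adventitial fibroblast markers to at most 1.85 CPM in any library. In such bulk libraries, fewer cells of a type and less RNA per cell cannot be told apart.

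Among the subunits, Nfkb2 had the smallest p-value. It encodes a precursor protein, p100, which holds Relb-containing dimers in the cytoplasm and is processed to the subunit p52 in the non-canonical pathway. The challenged libraries held 2201, 2031 and 2102 of its reads and the control libraries 2302, 2291 and 2289. These correspond to 117 ± 3.40 CPM and 125 ± 3.23 CPM (SD, n = 3 each). The highest challenged library stood at 121 CPM and the lowest control at 123 CPM, so the groups were separate by a narrow margin. In edgeR this gave -0.092 in log2 fold change (standard error, SE, 0.040, 95% interval -0.18 to -0.0048, edgeR adjusted p = 0.329), a difference of -6.20% that was not past the threshold.

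Nfkb1 encodes the precursor of p50, the partner of Rela in the classical dimer. It had 1003, 1001 and 1009 counts in the challenged libraries, against 1009, 1011 and 1035 in the control libraries, or 55.9 ± 0.793 CPM and 55.6 ± 1.04 CPM (SD, n = 3 each). The ranges of the groups overlapped. The difference came to 0.0079 on the log2 scale (SE 0.043, 95% interval -0.085 to 0.10, edgeR adjusted p = 0.960), so the interval holds changes between -5.72% and 7.24%. Rela encodes p65, the subunit that carries the transactivation domain of the classical dimer. The challenged libraries held 2053, 1975 and 1936 of its reads and the control libraries 2096, 1988 and 2044. Both groups spanned nearly the same range, 107 to 113 CPM and 107 to 117 CPM. By edgeR the log2 change was -0.012 (SE 0.046, 95% interval -0.11 to 0.087, edgeR adjusted p = 0.939).

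Relb, the subunit of the non-canonical pathway, had 743, 737 and 745 counts in the challenged libraries, against 783, 760 and 666 in the control libraries. The challenged libraries lay within the range of the controls, in which replicate 3 was the low one. In edgeR this gave 0.037 in log2 fold change (SE 0.069, 95% interval -0.11 to 0.19, edgeR adjusted p = 0.862), and without control replicate 3 it was -0.039. Rel encodes c-Rel, a subunit best known from lymphoid cells. It had the lowest counts of the 10 genes, with 84, 56 and 65 in challenged libraries and 61, 63 and 63 in control libraries. Challenged replicate 1 was the high library, and the other 2 challenged libraries lay on either side of the controls. The difference came to 0.16 on the log2 scale (SE 0.19, 95% interval -0.25 to 0.57, edgeR adjusted p = 0.762), and without H3CIT+dsDNA replicate 1 it was -0.011. The interval, which reaches from -15.8% to 48.1%, is the widest of the set.

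Among the inhibitors, Nfkbia and Tnfaip3 are the best known feedback genes. Nfkbia encodes IkB alpha, the fast-turning inhibitor of Rela dimers whose gene NF-kB itself induces. The challenged libraries held 1227, 1206 and 1204 of its reads and the control libraries 1266, 1288 and 1264, or 67.5 ± 1.07 CPM and 69.5 ± 1.42 CPM (SD, n = 3 each). All challenged counts were below all control counts, but after scaling the groups overlapped. By edgeR the log2 change was -0.042 (SE 0.041, 95% interval -0.13 to 0.047, edgeR adjusted p = 0.699), and the upper end of the interval corresponds to a rise of 3.30%. Tnfaip3 encodes A20, a ubiquitin-editing enzyme that ends signalling upstream of IKK. It had 474, 418 and 480 counts in the challenged libraries, against 473, 433 and 483 in the control libraries, and in both groups replicate 2 was the low library. In edgeR this gave 0.0090 in log2 fold change (SE 0.074, 95% interval -0.15 to 0.17, edgeR adjusted p = 0.975), an interval of -9.94% to 12.4%.

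Nfkbib encodes IkB beta, a slower inhibitor of Rela and c-Rel dimers. Its counts were 869, 852 and 784 in challenged libraries, with 997, 901 and 853 in the control ones, and the groups overlapped after scaling. Its log2 fold change was -0.11 (SE 0.072, 95% interval -0.27 to 0.049, edgeR adjusted p = 0.549), and with each library left out in turn it lay between -0.17 and -0.024, the latter without control replicate 1. Nfkbie encodes IkB epsilon, which acts in delayed feedback. It had counts of 439, 426 and 457 against 491, 452 and 535, with control replicate 3 as the high library and control replicate 2 within the range of the challenged libraries. Its log2 fold change was -0.13 (SE 0.073, 95% interval -0.29 to 0.026, edgeR adjusted p = 0.459) and lay between -0.20 and -0.080 with each library left out. Ikbkb, the gene of the catalytic subunit IKK beta, had counts of 689, 685 and 650 against 670, 644 and 769. Its challenged libraries lay inside the range of the controls, with a log2 change of -0.013 (SE 0.069, 95% interval -0.16 to 0.14, edgeR adjusted p = 0.959).

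**Figure D2:**
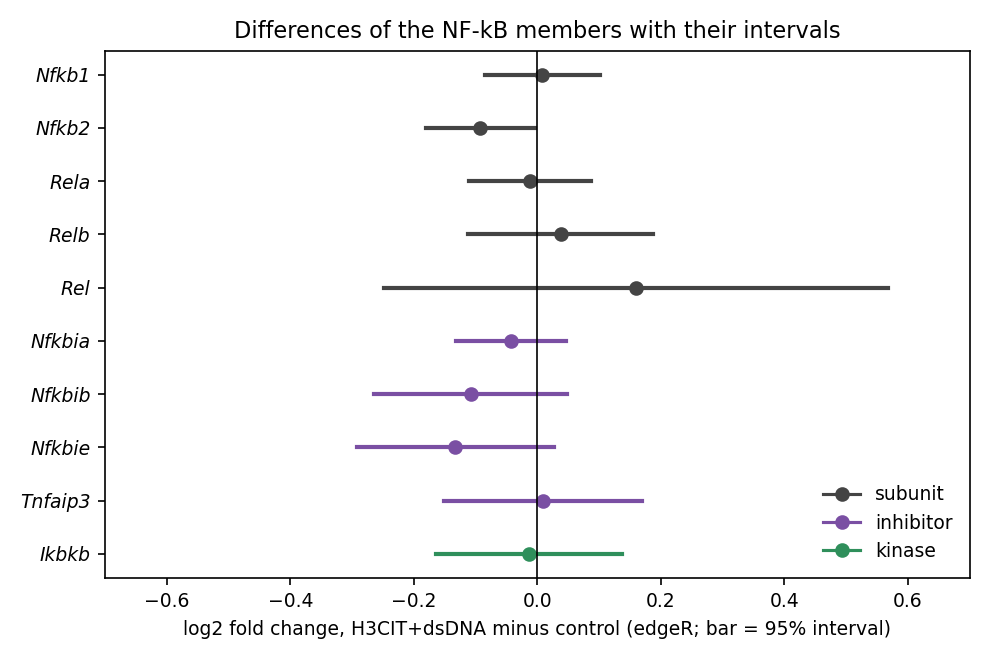
Log2 fold changes of the 10 genes, H3CIT+dsDNA minus control, from edgeR, as points with their 95% intervals as bars, coloured by role. 9 of the 10 intervals cross 0, that of Nfkb2 ends at -0.0048, and that of Rel is the widest, from -0.25 to 0.57.

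In order of the difference the genes ran Nfkbie, Nfkbib, Nfkb2, Nfkbia, Ikbkb, Rela, Nfkb1, Tnfaip3, Relb and Rel, and each interval overlapped that of its neighbours in this order. Apart from Rel, the upper ends of the intervals were at most 13.9% (Relb) and the lower ends at least -18.4% (Nfkbie), each at the 95% level for the gene taken alone. An absolute log2 fold change under 0.1 was found in 7 of the 10 genes, and in 60.4% of all genes tested.

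Ratios of a pair of transcripts within a library do not depend on how libraries are scaled. They were formed for 5 pairs, as the log2 of the ratio of counts with a pseudocount of 0.5, and compared with an exact permutation test, two-sided, which with 3 libraries against 3 cannot go below 0.1. The ratio of Nfkbia, the inhibitor, to Rela, its main partner, was 0.598, 0.611 and 0.622 in challenged libraries, while the controls had 0.604, 0.648 and 0.618, so that the groups overlapped (difference of mean log2 ratios -0.031, exact p = 0.5). The ratio of Nfkb2 to Nfkb1 was 2.19, 2.03 and 2.08 after challenge and 2.28, 2.27 and 2.21 in controls. It was lower in 3 of 3 challenged libraries than in any control, with a difference of -0.10 on the log2 scale and the smallest p-value the test can give (exact p = 0.1, 0.5 after adjustment over the 5 pairs). For Relb to Rela the difference was 0.053 (exact p = 0.7), for Nfkbie to Nfkbia -0.088 (exact p = 0.4) and for Tnfaip3 to Ikbkb 0.019 (exact p = 0.9), all with overlapping groups. Leaving out 1 library moved the Nfkbia to Rela difference to between -0.053 (without control replicate 1) and -0.0028 (without control replicate 2), and the Nfkbie to Nfkbia difference to between -0.16 (without control replicate 2) and -0.022 (without control replicate 3). The sign of the Relb to Rela difference turned without control replicate 3, where it was -0.018.

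**Figure D3:**
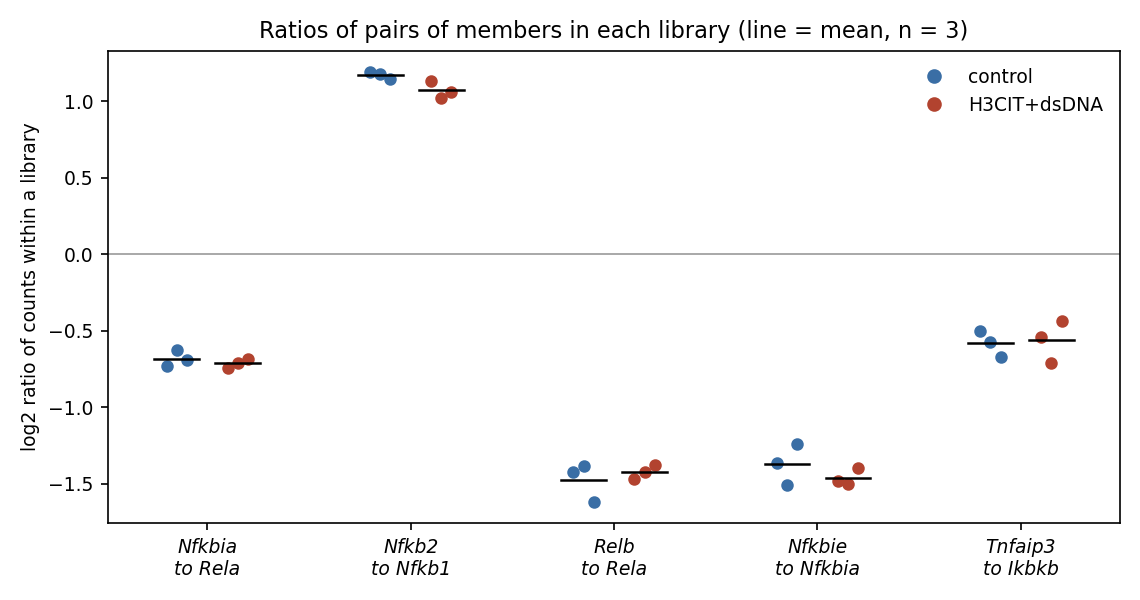
Log2 ratio of the counts of 2 genes within each library, for 5 pairs, with controls in blue, H3CIT+dsDNA libraries in red and lines at the means (n = 3). Heights of different pairs are not comparable, since counts are not corrected for transcript length. The groups are apart only for Nfkb2 to Nfkb1, with mean log2 ratios of 1.07 after challenge and 1.17 in controls.

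The promoters show which of these genes carry the letters of a kB site next to their start. RefSeq promoters of the rat build GRCr8, with 250 bases before and 50 after the start of the gene, were at hand for 8 of the 10 genes, all but Relb and Ikbkb. The kB consensus, searched on both strands, was found in 6 of the 8, Nfkb1, Nfkb2, Rel, Nfkbia, Nfkbie and Tnfaip3, and not in Rela and Nfkbib, and 7.51% of the 33469 promoters of the table held it. Matches on the 2 strands can overlap. The promoters of Nfkb2, whose groups did not overlap, and of Nfkbia and Tnfaip3, the best known feedback genes, are given here 5′ to 3′ on the strand of the gene, with the matches in capitals. They are at chr1:255108124-255108423 (plus strand, Nfkb2), chr6:78597023-78597322 (minus strand, Nfkbia) and chr1:15543930-15544229 (minus strand, Tnfaip3).
Nfkb2: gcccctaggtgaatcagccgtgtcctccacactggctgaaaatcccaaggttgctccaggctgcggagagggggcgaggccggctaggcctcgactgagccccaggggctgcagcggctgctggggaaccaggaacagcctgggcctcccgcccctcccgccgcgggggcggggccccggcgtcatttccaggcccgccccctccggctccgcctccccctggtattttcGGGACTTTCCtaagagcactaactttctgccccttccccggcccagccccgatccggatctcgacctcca
Nfkbia: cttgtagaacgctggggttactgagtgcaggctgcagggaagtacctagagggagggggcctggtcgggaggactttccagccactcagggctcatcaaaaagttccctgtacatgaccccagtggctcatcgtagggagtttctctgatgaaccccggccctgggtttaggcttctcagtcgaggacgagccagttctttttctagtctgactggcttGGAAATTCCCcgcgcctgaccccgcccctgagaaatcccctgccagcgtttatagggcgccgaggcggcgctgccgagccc
Tnfaip3: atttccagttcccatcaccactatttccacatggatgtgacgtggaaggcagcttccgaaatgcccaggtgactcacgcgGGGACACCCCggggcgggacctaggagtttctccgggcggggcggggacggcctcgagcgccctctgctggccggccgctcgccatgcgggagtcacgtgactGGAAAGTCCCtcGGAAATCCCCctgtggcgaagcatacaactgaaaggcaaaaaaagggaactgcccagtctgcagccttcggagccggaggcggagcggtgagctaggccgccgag
In Nfkb2 the match GGGACTTTCC begins 20 bases before the start of the gene, and 0.111% of all promoters held these 10 letters on either strand. A single string that matches the consensus cannot be more frequent than the consensus itself (7.51%). No such share was formed for the matches of Nfkbia and Tnfaip3. In Nfkbia the match begins 31 bases before the start. In Tnfaip3 the 3 matches begin 170, 67 and 55 bases before the start. A match is a description of the sequence and not a measure of binding, and the RNA levels of these 3 genes are those given with the subunits and inhibitors.

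The rest of the pathway was read from a list of 50 further genes, the receptors, adaptors and kinases that lead to IKK, the atypical IkB proteins and further inhibitors, of which 48 were in the table under the listed symbols and 47 could be tested. In edgeR 0 of the 47 were called, with a median log2 fold change of -0.016. At an unadjusted p-value under 0.05, 7 of the 47 passed, 5 higher and 2 lower, against 13.9% of all genes tested. Of the partners of Ikbkb in the IKK complex, Chuk, the gene of IKK alpha, stood at 0.013 in log2 fold change (edgeR adjusted p = 0.965) and Ikbkg, the gene of the scaffold NEMO, at -0.076 (adjusted p = 0.533). Map3k14, the gene of the kinase NIK of the non-canonical pathway, was at -0.041 (edgeR adjusted p = 0.883). Among the further inhibitors, Tnip1, which encodes an A20-binding protein, was at -0.040 (edgeR adjusted p = 0.628) and Cyld, the gene of a deubiquitinase, at -0.046 (adjusted p = 0.821).

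The count of 0 in this list depended on the method for a few genes, named here after their values were seen. Tax1bp1, whose product is an adaptor of A20, had 124 ± 2.21 CPM after H3CIT+dsDNA and 108 ± 5.90 CPM in controls (SD, n = 3 each). All challenged libraries lay above all controls. Its log2 fold change was 0.19 (SE 0.045, edgeR adjusted p = 0.0549), and 5 of the 15 alternatives called it, with an adjusted p-value of 0.0305 in DESeq2 and a range of 0.0176 to 0.203. Itch, a ubiquitin ligase that also works with A20, was at 0.18 (edgeR adjusted p = 0.0819) and was called in 2 of the 15 alternatives. Tab3, the gene of a TAK1-binding adaptor, was at 0.48 (edgeR adjusted p = 0.0893) and was called in 1, that with robust dispersion estimates. The other 4 genes with an unadjusted p-value under 0.05 were Tab2 (log2 fold change 0.14), Traf3 (0.10), Rbck1 (-0.12) and Bcl3 (-0.58), and none of these was called in any alternative.

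Textbook target genes of NF-kB formed a list of 40, of which 31 could be tested. The list was drawn up with earlier results of these data known, so its share of calls is a description and not an independent test. In edgeR 5 of the 31 were called, 4 higher and 1 lower, where the shares over all genes tested were 1.94% higher and 0.262% lower, and the list median was -0.0053. Mmp9, a matrix-degrading protease, had 175, 180 and 179 counts in the challenged libraries, against 30, 38 and 30 in the control libraries, which is 2.47 in log2 fold change (SE 0.15, edgeR adjusted p = 1.88e-07). Il1b, the gene of interleukin-1 beta, had 116, 109 and 120 counts against 22, 23 and 33, which is 2.17 in log2 fold change (SE 0.19, edgeR adjusted p = 9.74e-06). Cx3cl1, the gene of fractalkine, had 105, 98 and 116 counts against 32, 33 and 34, which is 1.72 in log2 fold change (SE 0.17, edgeR adjusted p = 3.17e-05), and its control counts are consecutive whole numbers. In each of these 3 genes the groups were far apart. Xiap, an inhibitor of caspases, rose by 0.52 on the log2 scale (SE 0.12, edgeR adjusted p = 0.0385). Its call was lost with a replicate block (adjusted p = 0.107) and without H3CIT+dsDNA replicate 1, H3CIT+dsDNA replicate 3, control replicate 1 or control replicate 2, with a highest adjusted p-value of 0.225. Bcl2l1, which encodes the survival protein BCL-XL, had 2895, 2900 and 2876 counts against 3708, 3763 and 3501 and fell by 0.31 on the log2 scale (SE 0.042, edgeR adjusted p = 0.000628).

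The other 26 targets tested were not called, with log2 fold changes between -0.80 (Bcl2a1, edgeR adjusted p = 0.102) and 0.37 (Vcam1). Of the 31 targets tested, the groups did not overlap in 6 that were higher and 2 that were lower. Over all genes tested these shares were 10.7% and 8.43%. Of the targets not called, Ccl20 (0.32, edgeR adjusted p = 0.398) and Tlr2 (0.27, adjusted p = 0.426) were higher without overlap, and Bcl2a1 was lower without overlap. The targets not called included some of the most used readouts. Icam1, an adhesion molecule for leukocytes, had 322 ± 7.58 CPM after challenge and 330 ± 18.3 CPM in controls (SD, n = 3 each), which is -0.035 in log2 fold change (95% interval -0.13 to 0.055, edgeR adjusted p = 0.762). Ccl2, a monocyte chemokine, was at 0.054 (95% interval -0.12 to 0.23, edgeR adjusted p = 0.817), and Il6 at 0.11 (95% interval -0.23 to 0.45, adjusted p = 0.809). The signs of these 3 genes each rested on single libraries: without control replicate 3 Ccl2 was at -0.055 and Il6 at -0.019, and Icam1 ranged from -0.072 to 0.0070 with each library left out. Cxcl1, a neutrophil chemokine, was at -0.082 (edgeR adjusted p = 0.754), and without control replicate 3 it was at -0.22 and called as lower (adjusted p = 0.0240). Of the 31 targets tested, 14 moved farthest when control replicate 3 was the library left out, as did 2 of the 10 subunit, inhibitor and kinase genes. The 9 targets with too few counts to be tested included Sele, Csf2, Csf3 and Plau, none of which reached more than 2 counts in any library. Cxcl6, also not tested, had 10, 7 and 13 counts against 4, 3 and 7, with all challenged libraries above all controls in CPM. Nos2 had 5, 0 and 8 against 1, 1 and 0, Ccl5 2, 8 and 3 against 6, 8 and 1, and Mmp3 5, 5 and 12 against 11, 7 and 8. The remaining one, Tnf, is described under the other observations.

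**Figure D4:**
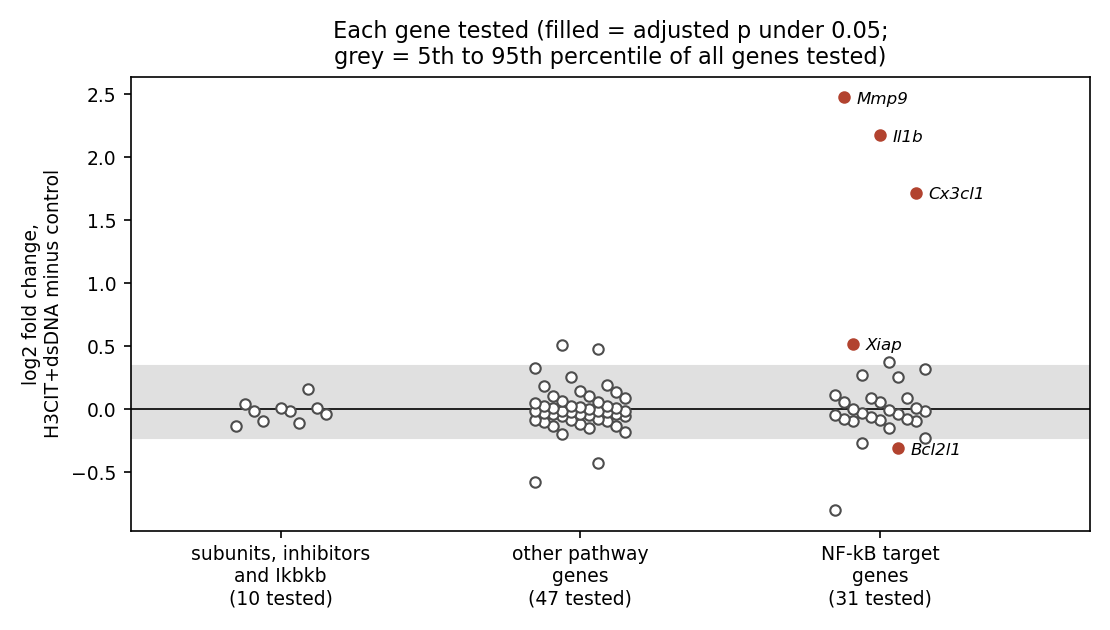
Log2 fold changes from edgeR, H3CIT+dsDNA minus control, of the 10 subunit, inhibitor and kinase genes, of 47 other pathway genes and of 31 target genes, each point 1 gene, filled where the adjusted p-value was under 0.05. The grey band is the range from the 5th to the 95th percentile of all genes tested, -0.23 to 0.34. All 10 genes of the first column lie within the band, and the 5 called genes are all targets.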

How the data were processed

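RNA of RASMCs was sequenced in 6 libraries, 3 challenged with H3CIT and dsDNA and 3 controls, grouped by their labels. The authors made stranded mRNA libraries, mapped reads to Rnor6.0 with TopHat 2.1.1, counted reads per gene with HTSeq 0.6.0 and deposited whole-number counts, not normalized. The strand setting of the counting was not given in the sources used here, so how reads of genes that overlap on opposite strands were assigned is not known. The labels also name Cufflinks 2.2.1 and Cuffdiff, without a role.

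Here low genes were dropped by filterByExpr, TMM factors set the scale, and edgeR 4.0.16 (R 4.3.3) ran its two-sided quasi-likelihood test on the 12591 genes left. Adjusted p-values (Benjamini-Hochberg, over these genes) under 0.05 were called. The study itself used DESeq2, which was run as an alternative (1.42.0), as was limma-voom (limma 3.58.1). Standard errors were obtained from the unshrunken coefficient and its F statistic, and 95% intervals use the moderated degrees of freedom. Fits were tested on simulated data.

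The 10 genes and the lists were chosen with earlier results of these data known. All 10 genes were named, and of the other lists the called genes. Genes outside this rule were named after their values were seen. Deviations from group means correlated across genes by -0.0458 to 0.0355 in same-numbered libraries and by -0.0462 to 0.0420 in differently numbered ones. The labels give only the number. Whether same-numbered libraries shared more cannot be decided from these correlations, since each deviation is from a mean of only 3 libraries. Over the whole table every replicate pair differed by more than counting noise (chi-square per gene 3.28 to 6.66). This is a mean over genes and does not hold for each gene. Among genes with mean counts in the range of the 10, many had an SD below the square root of the mean count. Their share was 38.1% after H3CIT+dsDNA and 34.6% in controls.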

Additional observations from a re-analysis of the deposited data

How the results depend on the processing

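The count of 0 called among the 10 subunit, inhibitor and kinase genes held in all 15 alternatives: 3 other scalings, DESeq2, limma-voom, 2 other filters on low counts, robust dispersion estimates, a fit with the replicate block, and leaving out each of the libraries. Of the 150 values of these genes under the alternatives, 135 kept their sign and 15, in 6 genes, changed it without a call, none of them larger than 0.056 in size. With upper-quartile scaling Nfkb1 was at -0.0091 and Tnfaip3 at -0.0081, and with library size alone Rela was at 0.0076 and Ikbkb at 0.0061. With each library left out, Nfkb1 ranged from -0.0065 to 0.020, Rela from -0.040 to 0.026, Relb from -0.039 to 0.10, Rel from -0.011 to 0.27, Tnfaip3 from -0.046 to 0.055 and Ikbkb from -0.073 to 0.056. The difference in log2 ratio ranged from -0.018 to 0.097 for Relb to Rela and from -0.044 to 0.093 for Tnfaip3 to Ikbkb. The number of genes called over the whole table, 277, ran from 164 (without H3CIT+dsDNA replicate 1) to 357 (without control replicate 3) with a library left out and was 184 without control replicate 1. The other pathway genes, with 0 calls, had 2 with library size alone, 1 with DESeq2, 1 with no filter on low counts, 1 with at least 10 counts in every library and 3 when dispersions were estimated robustly. What causes these shifts was not tested.

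With the replicate block 212 genes were called over the whole table, 0 of the 10 genes, and 4 targets, Xiap being lost (edgeR adjusted p = 0.107). Among the smooth muscle markers the block also lost Smtn (edgeR adjusted p = 0.0981). The calls of the other named genes did not change with the block. Every alternative set out at the start was run. Depth limits Rel, with at most 84 counts in a library.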

Other observations

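Control replicate 3 stood apart over the whole table, and in a few genes around the pathway its count lay far from those of the other 5 libraries. Traf6, the ubiquitin ligase between Toll-like receptors and TAK1, had 280, 242 and 246 counts in challenged libraries but 210, 275 and 65 in the control ones, so that its log2 fold change of 0.51 (edgeR adjusted p = 0.520) was 0.098 without control replicate 3. Sod2, a mitochondrial superoxide dismutase and NF-kB target, had 1678, 1591 and 1489 counts against 1644, 1630 and 785, and its log2 fold change of 0.25 (edgeR adjusted p = 0.612) was -0.027 without that library. Tnf had 69 counts in control replicate 3 and 0 in the other 5 libraries, and was not tested. In Relb the same library was the low control as well, at 666 counts against 783 and 760. These genes were singled out after their values were seen, and the part of the library in them was not tested.

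For some of the 10 genes the SD of the replicate counts, not scaled for library size, was far under the square root of the mean count. That square root is the SD from counting alone in libraries of the same depth, and the totals of these libraries differed. The SD of the counts was 4.16 for Nfkb1 after H3CIT+dsDNA, where the square root of the mean count is 31.7, and 4.16 for Relb, where it is 27.2. In controls it was 7.0 for Nfkb2 beside 47.9, and 1.15 for Rel beside 7.90. After scaling, the SD as a share of the mean was 1.42% for Nfkb1 and 1.14% for Relb after H3CIT+dsDNA. In controls this share was 2.58% for Nfkb2 and 0.392% for Rel. Relative to the mean, that is wider than in the counts for Nfkb1, Relb and Nfkb2, and narrower for Rel. The scaled values were not set against counting error. In the unscaled counts an SD under 0.2 of the square root of the mean was found in 2 of the 10 genes in each group. Among genes with mean counts in the range of the 10, the share was 2.23% of 8526 after H3CIT+dsDNA and 2.01% of 8756 in controls. Over all 10 genes the median SD over the square root of the mean was 1.08 after H3CIT+dsDNA and 1.21 in controls. Over the genes of that range it was 1.21 and 1.29. The limit of 0.2 was chosen after the counts were seen, 10 genes are few, and no cause was tested.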
